A study of Mus musculus with 16 samples.

Results

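The 9 genes described here, Cenpq, Gpn3, Cox18, Vps51, Sphk2, Mydgf, Zfp689, Pced1a and Syf2, were covered over 100% of their annotated span by an H3K36me3 island in wild-type neural stem cells and over 0% in Setd5+/- cells. They were chosen by those 2 values, so the loss itself is a description and no test is given for it. The same values were met by 69 of 20661 autosomal protein-coding genes, a background of 0.334%, and by 9.7% of the 711 genes at 100% in wild type. The 9 are 9 of the 12 genes of at least 6558 bp that met them. The other 3 of that length are LOC115488789, D830031N03Rik and 9930104L06Rik.

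Chromatin immunoprecipitation and sequencing was done on mouse neural stem cells of the embryonic cortex (telencephalon, E14.5), which were expanded as neurospheres and fixed after plating on Matrigel. Wild-type and Setd5+/- cells were each profiled for H3K36me3, H3K36me2, H3K4me3, H3K27ac, H3K4me1 and H3K27me3, and cells labelled WT-S5V5 for V5-tagged SETD5. With a single library for every mark and genotype, no difference has a replicate check and none was tested. The labels do not say which Setd5 allele was used, how the tag was introduced or whether cells of several embryos were pooled. A call lost in some of the cells and a weaker signal in all of them cannot be told apart. An island is a region that the authors' caller marked as enriched, and each comes with a whole number read here as its reads. Of 7 marker genes of neural stem cells and radial glia, 6 had H3K27ac at a start in wild type and the same 6 in Setd5+/- cells. Pax6 had it in neither genotype. None of 4 neuronal, 4 microglial and blood or 4 endothelial and mesenchymal markers had it in either. Of 5 astrocyte and oligodendrocyte markers, Olig1 and Olig2 of the oligodendrocyte lineage had it in both genotypes. Gfap, Aqp4 and Mbp had it in neither.

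Trimethylation of histone H3 at lysine 36 is laid down behind elongating RNA polymerase II and is a mark of transcribed gene bodies. The series title describes SETD5 as a methyltransferase for this lysine. H3K4me3 and H3K27ac mark active promoters, H3K4me1 lies at enhancers and promoter flanks, and H3K27me3 is the mark of Polycomb repression. Cenpq encodes a subunit of the inner kinetochore. Gpn3 encodes a GTPase needed to bring RNA polymerase II into the nucleus, and Syf2 encodes a splicing factor. Cox18 inserts a subunit of cytochrome c oxidase into the inner mitochondrial membrane, and Vps51 is part of tethers that catch endosome-derived vesicles. Sphk2 makes sphingosine 1-phosphate, Mydgf is a secreted growth factor, Zfp689 is a zinc finger protein, and Pced1a has a PC-esterase domain.

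In 8 of the 9 cases the wild-type island did not vanish. It was an island over the named gene and at least 1 neighbour, and in Setd5+/- cells an island remained over another stretch of it. Only the island over Vps51 had no Setd5+/- island of any length. The 9 wild-type islands spanned 280.0 kb together, of which 153.6 kb (54.9%) was still covered in Setd5+/- cells. The genes themselves make up 79.7 kb and had to be uncovered by the choice, so at most 71.5% could be kept. Of the 200.3 kb outside them, 76.7% was kept. The kept share of each island ranged from 0% for Vps51 to 80.8% for Cox18, with a median of 50.0%. Over all 8207 autosomal wild-type islands, 853 (10.4%) had no Setd5+/- island. The genes are therefore called by their coverage, and not as genes whose island vanished.

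Promoters of 3 genes are shown because the start of a neighbouring gene lies inside the same window on the opposite strand, so that a gene at 0% in Setd5+/- cells and a gene with some coverage there start within 1 window. The windows are the 250 bases before and 50 after an annotated start (RefSeq, GRCm38.p6), read 5′ to 3′ on the strand of the named gene. Capitals mark matches, on either strand, to the GC box letters GGGCGG, the ETS letters CCGGAAG, the CCAAT box letters CCAAT or the TATA box letters TATAAA. Gpn3 is at chr5:122372258-122372557, plus strand, with the start of Fam216a 166 bases away. Sphk2 is at chr7:45717953-45718252, minus strand, with the start of Rpl18 69 bases away. Pced1a is at chr2:130424239-130424538, minus strand, with the start of Vps16 32 bases away.
Gpn3: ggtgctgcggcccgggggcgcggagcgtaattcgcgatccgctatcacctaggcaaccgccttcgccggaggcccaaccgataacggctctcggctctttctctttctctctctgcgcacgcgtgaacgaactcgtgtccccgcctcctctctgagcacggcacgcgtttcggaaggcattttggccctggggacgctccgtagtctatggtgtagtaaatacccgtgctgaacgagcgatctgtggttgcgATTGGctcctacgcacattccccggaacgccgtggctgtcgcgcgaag
Sphk2: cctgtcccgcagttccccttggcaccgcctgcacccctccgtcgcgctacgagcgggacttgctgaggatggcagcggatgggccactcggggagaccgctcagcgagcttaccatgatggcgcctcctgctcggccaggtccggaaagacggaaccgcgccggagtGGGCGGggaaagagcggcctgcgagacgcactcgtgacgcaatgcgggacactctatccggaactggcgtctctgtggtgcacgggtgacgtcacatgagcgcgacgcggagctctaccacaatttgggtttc
Pced1a: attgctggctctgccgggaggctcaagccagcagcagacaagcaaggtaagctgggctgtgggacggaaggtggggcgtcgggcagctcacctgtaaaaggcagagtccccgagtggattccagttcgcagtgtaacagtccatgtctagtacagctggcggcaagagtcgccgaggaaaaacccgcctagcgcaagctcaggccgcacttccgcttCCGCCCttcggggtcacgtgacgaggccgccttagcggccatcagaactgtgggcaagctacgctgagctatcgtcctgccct

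The promoter table held 9 windows for 7 of the genes, with 2 starts each for Sphk2 and Pced1a, and none for Cox18 and Vps51. Their G and C content ran from 48.0% at Zfp689 to 66.0% at the Sphk2 window shown, against a median of 57% over 20084 windows of autosomal protein-coding genes. They held 12 to 37 CG dinucleotides, against a median of 14. Zfp689 had the fewest and Gpn3 the most. The GC box letters were in 7 of the 9 windows and in 47.0% of all windows. The ETS letters were in 4, at Cenpq, Mydgf, Pced1a and Syf2, and in 11.9% of all, the CCAAT letters in 4 and 38.1%, and the TATA letters in 1, at Mydgf, and 12.7%. The 9 windows had a median of 27 CG dinucleotides, so all windows are no matched background for these letters. Sphk2 and Pced1a count 2 times each among the 9, and no excess was tested. A match is a string of letters and not a binding site.

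Cenpq, on chromosome 17 (40920809 to 40934574), lay at the left end of a wild-type island of 42.4 kb with 439 reads that also covered all of Mmut, which encodes methylmalonyl-CoA mutase. The island began 8 bp before the gene, so the 100% rests on a margin of 8 bp. In Setd5+/- cells 2 islands lay over the right part of it, and the nearer of them, with 231 reads, started 3026 bp beyond Cenpq. Together the 2 had 394 reads over 26.4 kb, of which 21.6 kb lay in the wild-type island. Mmut went from 100% to 74.7% covered and Glyatl3, which overlaps Cenpq by 2240 bp, from 12.3% to 0%. No SETD5-V5 island touched the wild-type island.

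Gpn3, on chromosome 5 (122372508 to 122382771), lay at the right end of a wild-type island of 27.2 kb with 345 reads. A Setd5+/- island of 13.6 kb and 293 reads covered 50.0% of it and ended 2107 bp short of Gpn3. That island lay over Fam216a, which went from 100% to 74.97% and whose start faces that of Gpn3, and over Vps29 of the retromer, which went from 84.3% to 76.8%. SETD5-V5 lay on the same side, over 64.7% of Fam216a and 84.3% of Vps29, and its island ended 2907 bp short of Gpn3. The long non-coding RNA gene Gm32853, at the far end of Gpn3, went from 40.1% to 0%.

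Cox18, on chromosome 5 (90214724 to 90224595), took up 12.5% of the longest of the 9 islands, 79.2 kb with 1171 reads, most of it over Ankrd17, which encodes an ankyrin repeat protein. In Setd5+/- cells 2 islands together kept 80.8% of that length, and Ankrd17 went from 73.5% to 63.3%. Those 2 islands had 1610 reads over 80.8 kb, of which 64.0 kb lay in the wild-type island. The nearer of them, with 961 reads, started 1805 bp beyond Cox18. A SETD5-V5 island of 32.0 kb and 658 reads began 205 bp beyond the gene and ran over Ankrd17.

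Vps51, on chromosome 19 (6067842 to 6077187), filled 77.9% of an island of 12.0 kb with 114 reads, the narrowest and the lowest in reads of the 9. No Setd5+/- island lay in that island, although 1 of 16.0 kb and 209 reads began 2013 bp to the right of the gene. Tm7sf2, a sterol reductase gene at its other end, went from 44.7% to 0%. The nearest SETD5-V5 island was 159841 bp from the gene.

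Sphk2, on chromosome 7 (45709463 to 45718002), lay in a wild-type island of 19.2 kb with 209 reads. Of the 9 genes it had the closest Setd5+/- island, 398 bp away, and that island was 4.0 kb wide with 74 reads. It lay over the ribosomal protein gene Rpl18, which went from 100% to 45.4%. The annotated spans of Rpl18 and Sphk2 overlap by 2536 bp. Fam83e went from 70.2% to 14.3%. Spaca4 went from 100% to 0% and Dbp, a circadian transcription factor gene that overlaps the far end of Sphk2, from 43.2% to 0%. SETD5-V5 was not found in the island.

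Mydgf, on chromosome 17 (56176541 to 56183920), lay in an island of 40 kb with 435 reads that also held most of the dipeptidyl peptidase gene Dpp9. A Setd5+/- island of 27.2 kb and 402 reads began 4880 bp beyond Mydgf, the widest gap of the 9. Of that Setd5+/- island, 24.0 kb lay in the wild-type one. Dpp9 had 81.1% in wild type and 84.4% in Setd5+/- cells. Mydgf lies wholly inside the span of Tnfaip8l1 on the opposite strand, which went from 52.5% to 0%, so the wild-type signal cannot be assigned to either of them. A SETD5-V5 island of 1.6 kb and 132 reads lay over 4.97% of Dpp9.

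Zfp689, on chromosome 7 (127442136 to 127449158), lay in an island of 29.6 kb with 319 reads. A Setd5+/- island of 17.6 kb and 334 reads kept 59.5% of it and began 2042 bp beyond the gene. Most of the kept stretch lies over the long non-coding RNA gene B130055M24Rik, which overlaps the start of Zfp689 and went from 100% to 84.0%. SETD5-V5 covered 56.6% of B130055M24Rik and none of Zfp689. Prr14, further right, had 69.4% and 61.7%.

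Pced1a, on chromosome 2 (130417683 to 130424641), lay in an island of 17.6 kb with 166 reads, at 9.43 reads per kb the least dense of the 9. A Setd5+/- island of 21.6 kb and 306 reads began 2559 bp beyond the gene. Only 5.6 kb of it lay in the wild-type island, which kept 31.8% of its length. The Setd5+/- island lay over Vps16, an endosomal tethering gene whose start faces that of Pced1a, and which overlaps Pced1a by 322 bp. Vps16 was at 79.9% in wild type and at 85.6% in Setd5+/- cells. Syf2, on chromosome 4 (134930980 to 134937537), lay at the right end of an island of 12.8 kb with 184 reads. A Setd5+/- island of 3.2 kb and 77 reads remained 2179 bp to its left, over Rsrp1, which went from 68.6% to 47.3%. Neither wild-type island held SETD5-V5.

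**Figure D1:**
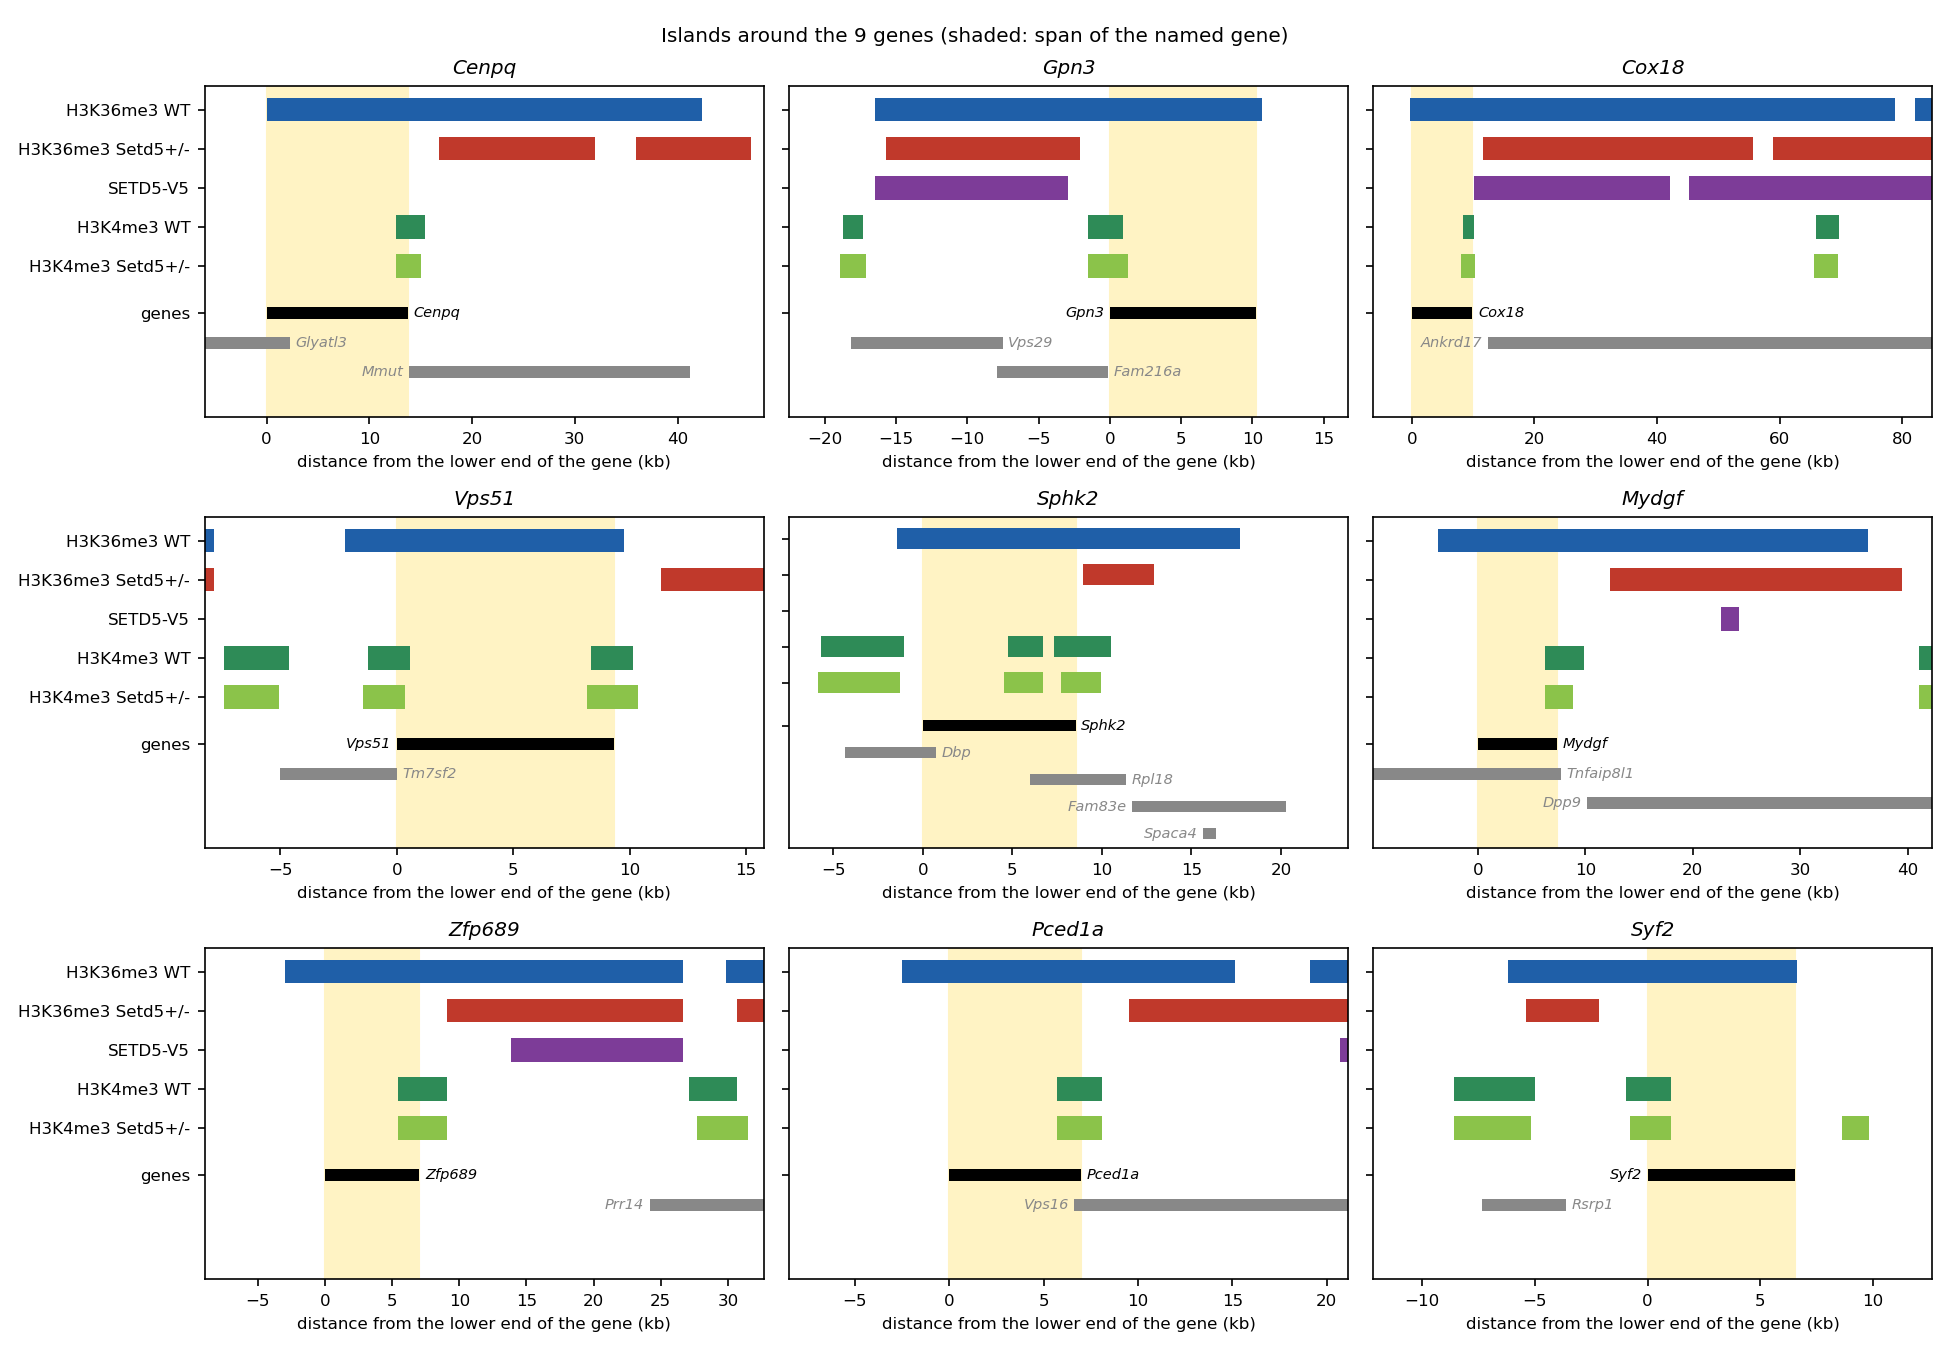
Islands around each of the 9 genes, by distance in kb from the lower-coordinate end of the gene, with the span of the named gene shaded and protein-coding neighbours in grey. Wild-type H3K36me3 spans each named gene, Setd5+/- H3K36me3 and SETD5-V5 are never over it, and SETD5-V5 lies in 4 of the 9 wild-type islands. H3K4me3 is within 1 kb of a start in both genotypes, or of a gene end for Cox18 and Vps51, whose starts are not known.

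Across the 9 islands, 15 other protein-coding genes were touched. Of these, 10 had some Setd5+/- coverage and 5 had none, namely Glyatl3, Tm7sf2, Dbp, Spaca4 and Tnfaip8l1. The strands of both genes were in the promoter table for 12 of the 15. Of those, 5 neighbours faced the named gene head to head, and 3 of these, Fam216a, Rpl18 and Vps16, had a start within 1 kb of its start. All 3 had coverage in both genotypes.

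The islands behind the 9 genes were wider than most wild-type islands, as covering a whole gene of this length requires, and 6 were less dense than the median one. Their width ranged from 12.0 to 79.2 kb with a median of 27.2 kb, against 16.8 kb over all autosomal wild-type islands, and 2 were narrower than that. Their reads ranged from 114 to 1171 with a median of 319, against 195. Density ranged from 9.43 reads per kb at Pced1a to 14.8 at Cox18, and 6 of the 9 were below the 11.8 of the median autosomal island. For the 434 genes of at least 6558 bp that were at 100% in wild type and above 0% in Setd5+/- cells, the medians were 32.8 kb, 421 reads and 12.9 reads per kb. The 9 had a median of 10.9 reads per kb. Vps51 (9.50 reads per kb, 95% Poisson interval 7.84 to 11.4) and Pced1a (9.43, 8.05 to 10.98) were the least dense. Cox18 (14.8, 13.95 to 15.7) and Syf2 (14.4, 12.4 to 16.6) were the densest. A read count is given for the whole island only, so the reads on the gene itself are not known.

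The Setd5+/- list holds denser islands. Its median autosomal island had 16.2 reads per kb and its 5th percentile was 12.8. The densities of the wild-type islands over the 9 genes exceeded between 0% and 29.0% of Setd5+/- islands, with a median of 0.0861%. The wild-type islands held 2468530 reads in all and the Setd5+/- islands 3561439. Reads outside islands are unknown. For 7 of the 9, the wild-type island had fewer reads than every Setd5+/- island of exactly its width. The same was true of 48.7% of the 1321 autosomal wild-type islands with one of these widths. Cenpq had 439 reads against at least 540 in 47 such islands, and Mydgf had 435 against at least 588 in 37. Gpn3 (345 reads) and Syf2 (184) were the exceptions, with a lowest count of 322 and 134. When wild-type reads were multiplied by 1.38, the ratio of the median densities of the 2 lists, none of the 9 fell below all Setd5+/- islands of its width, and 6 stayed below their median. The part of this difference between the lists in the missing islands was not tested. The scaled counts have no share over all wild-type islands beside them, so they are not read as a trait of the 9.

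**Figure D2:**
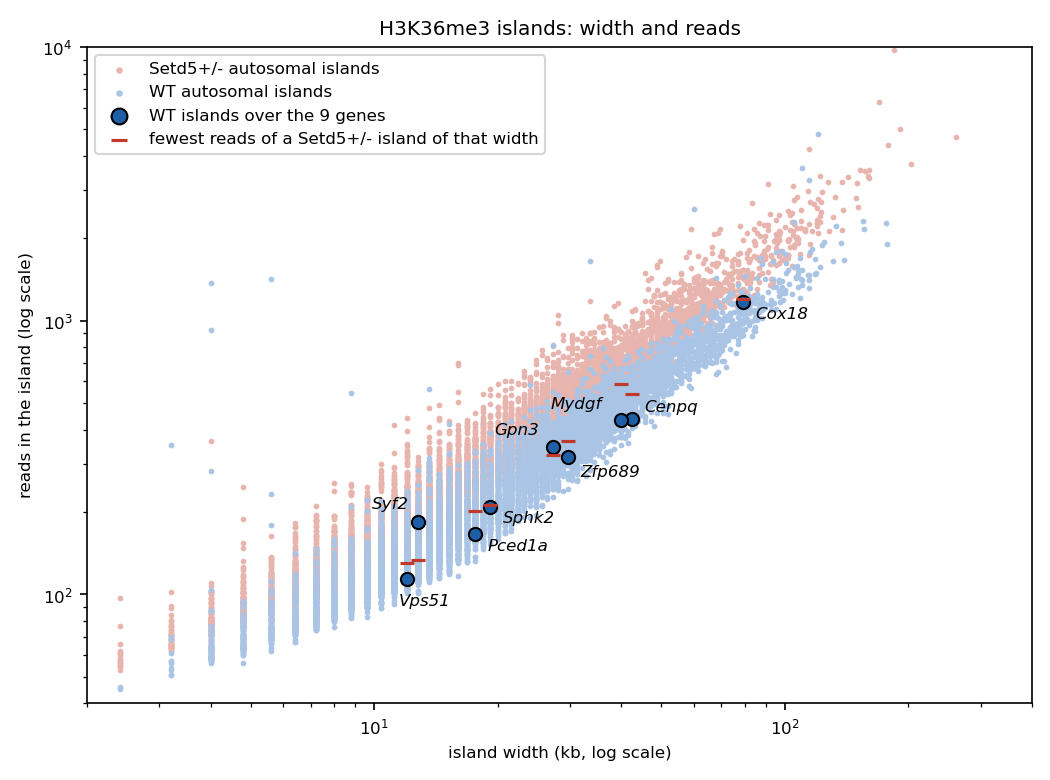
Reads against width (kb), both on log scales, for autosomal H3K36me3 islands of wild-type (blue) and Setd5+/- cells (pink), with the wild-type islands over the 9 genes as large points. Red dashes give the fewest reads of a Setd5+/- island of the same width, and 7 of the 9 points lie below theirs, as do 48.7% of all wild-type islands of these widths.

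Thin islands were lost more often in general. Among the 711 autosomal genes at 100% in wild type, 13 of 39 (33.3%, 95% Wilson interval 20.6 to 49.0) were at 0% in Setd5+/- cells where the wild-type island had under 10 reads per kb. The share was 13.4% (9.40 to 18.8) of 201 genes at 10 to 12 reads per kb, 6.93% (4.78 to 9.96) of 375 at 12 to 15, and 3.23% (1.103 to 9.06) of 93 at 15 to 20. Only 3 genes had a denser island, and none of them was at 0%. Of the 9 genes, 2 were in the lowest class, 4 in the second and 3 in the third. Genes that share an island are not independent, and these intervals cover counting error only. Among all autosomal wild-type islands the share with no Setd5+/- island went from 28.6% under 10 reads per kb to 2.15% at 15 to 20, but was 24.6% of the 57 islands at 20 or more.

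SETD5-V5 was on none of the 9 genes. Over all autosomal protein-coding genes 4773 (23.1%) had a SETD5-V5 island over at least 1 bp, and 421 of the 711 at 100% H3K36me3 in wild type did (59.2%). The 9 genes were not chosen on SETD5-V5, which is a separate library from wild-type cells with 2464878 reads in islands. The nearest SETD5-V5 island was 205 bp from Cox18, 2907 bp from Gpn3, 6842 bp from Zfp689 and 13759 bp from Pced1a. For Cenpq, Sphk2, Syf2 and Vps51 it was over 100 kb away, up to 300808 bp for Cenpq. The list holds only regions past the caller's threshold, so weaker SETD5-V5 signal on these genes was not measurable.

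Where SETD5-V5 did lie in the 9 wild-type islands, it was mostly on the stretch that Setd5+/- cells kept. It covered 88.0 of the 153.6 kb kept (57.3%) and 5.6 of the 126.4 kb not kept (4.43%). The length not kept includes the 79.7 kb of the 9 genes, uncovered by the choice. Their lack of SETD5-V5, given above, is thus counted again in the lower share. Of the 5.6 kb, 4.8 kb was in the island of Cox18, where it made up 31.6% of the stretch not kept. The other 0.8 kb was in the island of Gpn3, at the end away from that gene. Cox18 also gave 60.8 kb of the 88.0 kb, and without it SETD5-V5 was on 27.2 of 89.6 kb kept (30.4%) and on 0.8 of 111.2 kb not kept (0.719%). SETD5-V5 was present in 4 of the islands, those of Gpn3, Cox18, Mydgf and Zfp689, and its share of the kept stretch there was 94.1%, 95.0%, 6.67% and 72.7%. The islands of Cenpq, Sphk2, Pced1a and Syf2 kept H3K36me3 with no SETD5-V5. Over all autosomal wild-type islands SETD5-V5 was likewise on more of the kept length (57.7%) than of the rest (11.5%), so that direction is not particular to the 9.

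Other genes at 100% in wild type and 0% in Setd5+/- cells had little SETD5-V5 too. It lay on 1 of the 60 others, 1700092M07Rik, and on 420 of the 642 genes above 0% (65.4%). The 60 were shorter, with a median of 2.84 kb against 10.5 kb for the 642. Among genes of at least 6558 bp, SETD5-V5 lay on 0 of 12 at 0% and on 347 of 434 above 0% (80.0%). By island density it lay on 0 of 13 and 10 of 26 genes under 10 reads per kb, and on 0 of 27 and 89 of 174 at 10 to 12. At 12 to 15 reads per kb it lay on 1 of 26 and 247 of 349. The share was thus lower at 0% in each of these 3 classes.

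**Figure D3:**
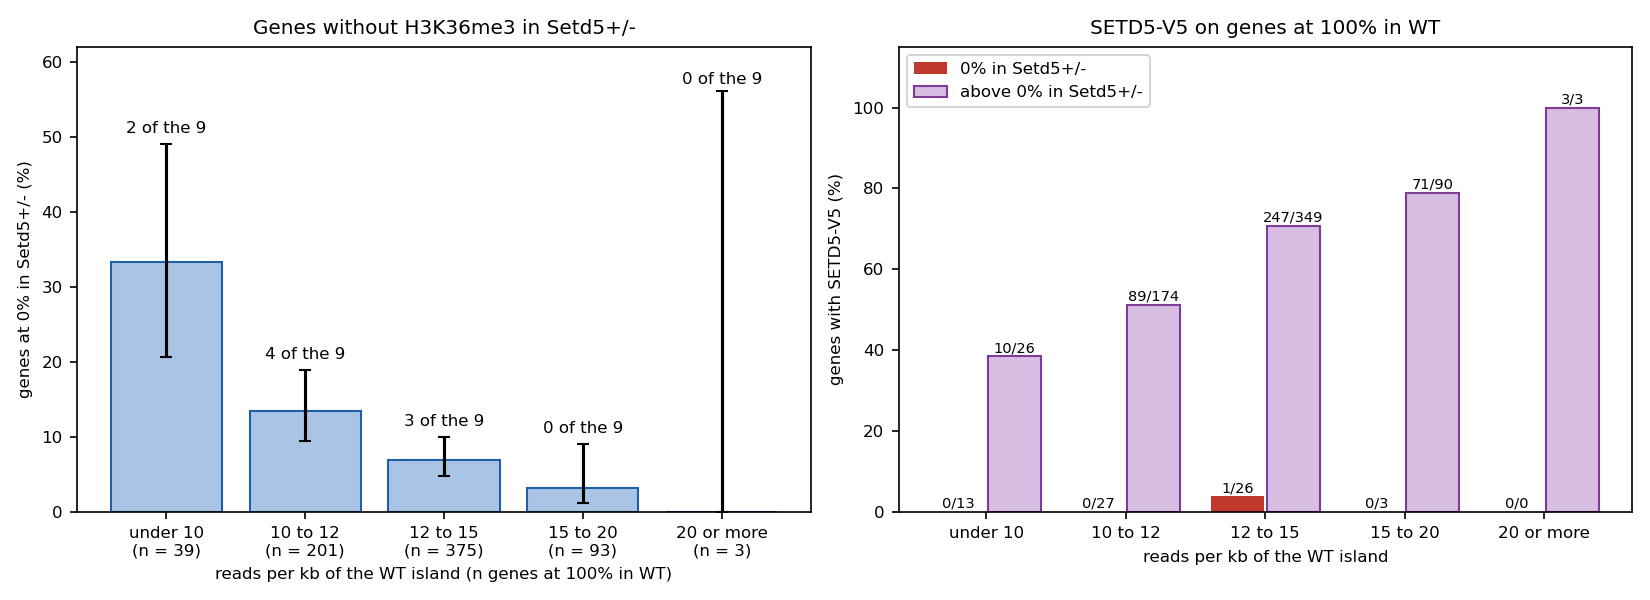
Autosomal genes at 100% H3K36me3 in wild type, by reads per kb of the wild-type island over them. Left, percent at 0% in Setd5+/- cells with 95% Wilson intervals and the number of the 9 genes in each class. Right, percent with SETD5-V5 among genes at 0% and above 0%, with counts over the bars. SETD5-V5 was on 1 of all 69 genes at 0%.

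All 9 genes kept H3K4me3 at a start in both genotypes, where 59.3% of autosomal protein-coding genes did. A start is an annotated transcription start, or either gene end for Cox18 and Vps51, and an island within 1 kb of it counted. Starts of Fam216a, Rpl18 and Vps16 lie 166, 69 and 32 bp from a start of Gpn3, Sphk2 and Pced1a. Promoter marks and their reads there cannot be assigned to 1 gene of the pair. At Vps51 the H3K4me3 reads of 2 islands were added, and which of them is at its own start is not known. All 645 genes at 100% H3K36me3 and with H3K4me3 in wild type also had it in Setd5+/- cells, so the 9 do not stand apart from those. H3K4me3 reads at the starts were 556 in wild type and 585 in Setd5+/- cells at Cenpq, 332 and 394 at Gpn3, 271 and 262 at Cox18, and 540 and 561 at Vps51. They were 730 and 739 at Sphk2, 351 and 318 at Mydgf, 630 and 650 at Zfp689, 427 and 459 at Pced1a, and 294 and 270 at Syf2. Divided by the reads in islands of each library, the ratio of Setd5+/- to wild type ran from 0.828 at Mydgf to 1.09 at Gpn3 with a median of 0.943. Over 12246 autosomal genes marked in both the median was 0.962, with a 10th and 90th percentile of 0.796 and 1.31. The 95% interval of the ratio, from the exact binomial interval of the 2 read counts, lay below 1 at Mydgf (0.710 to 0.967) and Syf2 (0.709 to 0.994) and included 1 at the other 7. Those intervals compare 2 libraries and cover counting error only.

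H3K27ac was at a start of 8 of the 9 genes in both genotypes, where 33.3% of all autosomal genes and 80.0% of the 711 at 100% H3K36me3 in wild type were, and Syf2 had none in either. Counting only islands over the start base itself gave 7 of the 9. No gene of the 9 had it in wild type only, against 6.22% of autosomal genes and 4.50% of the 711. Both shares are small, so none among 9 genes is not a contrast with them. Sphk2 had 119 wild-type reads and 33 Setd5+/- reads, a ratio on the same scale of 0.310 (95% interval 0.204 to 0.460). These came from 2 islands in wild type and from 1 in Setd5+/- cells that did not reach into the gene. Mydgf had 110 and 37 reads (ratio 0.376, 0.252 to 0.551) and Cenpq 72 and 40 (0.622, 0.412 to 0.928). The ratio was 0.821 at Cox18, 0.831 at Pced1a, 0.889 at Zfp689, 0.916 at Vps51 and 1.03 at Gpn3, and its interval included 1 at these 5. Over 6887 autosomal genes the median ratio was 0.913 and the 10th percentile 0.560, so Sphk2 and Mydgf lay below that percentile and Cenpq above it.

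**Figure D4:**
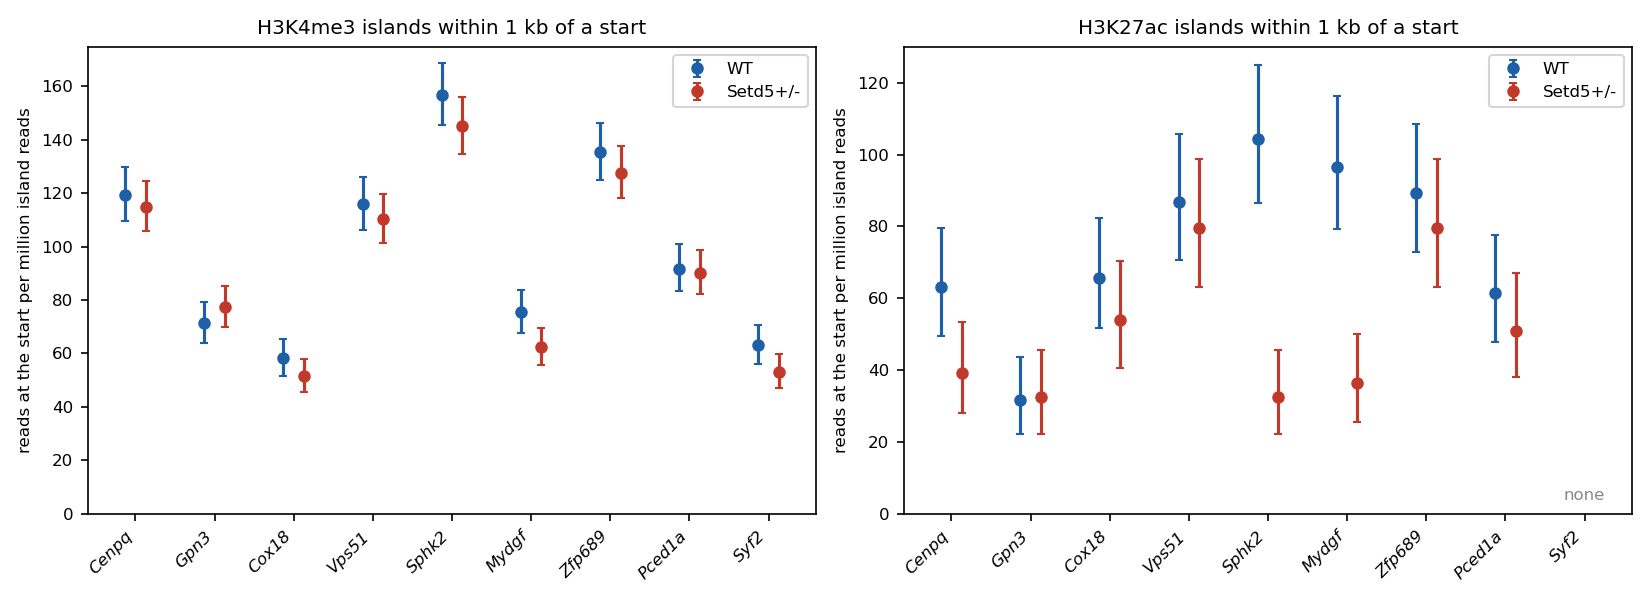
Reads of H3K4me3 (left) and H3K27ac (right) islands within 1 kb of a start, scaled to the reads in islands of that library, for the 9 genes in wild-type (blue) and Setd5+/- cells (red), with 95% exact Poisson intervals. H3K4me3 differs little between genotypes, H3K27ac is lower at Sphk2 and Mydgf in Setd5+/- cells, and Syf2 has no H3K27ac island.

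H3K4me1 was the mark that differed most often at the starts. It was at 8 of the 9 genes in wild type, all but Cox18, and at 1 in Setd5+/- cells, Mydgf. That leaves 1 gene marked in both genotypes and 7 in wild type only, against 14.2% and 22.5% of autosomal genes. The list as a whole moved the same way, and 61.3% of the 7565 autosomal genes with H3K4me1 at a start in wild type lacked it in Setd5+/- cells, as did 54.6% of the 520 such genes among the 711. The islands behind it were small, from 23 reads at Gpn3 to 81 at Zfp689. The wild-type H3K4me1 islands held 1988772 reads in all and the Setd5+/- ones 1110651, and the part of that difference in the result was not tested.

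No H3K27me3 and no H3K36me2 island touched any of the 9 genes, or the wild-type H3K36me3 island around it, in either genotype. Over all autosomal genes 13.3% had H3K27me3 and 8.49% had H3K36me2 over at least 1 bp in 1 genotype or both. Neither call was gained where the H3K36me3 call was lost.

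The 9 genes lie on 6 chromosomes, where H3K36me3 covered between 0.968 and 1.15 times as much in Setd5+/- as in wild-type cells. The highest of these is chromosome 4, which holds Syf2. None lies on chromosome 1 or 15, where that ratio was 1.75 and 1.38. The reverse change, from 0% to 100%, was seen at 53 autosomal genes, and at 34 without chromosomes 1, 4 and 15, against 64 of the 69 in the direction of the 9.

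Genes just outside the choice had close values. At 100% in wild type the lowest coverage above 0 in Setd5+/- cells was 6.35% at Gm52009 and 9.11% at Ppp1r35, followed by Mgat2 (14.3%), Dnase1l2 (15.3%) and Nudt17 (16.8%). At 0% in Setd5+/- cells the highest under 100% in wild type was 99.2% at Ddost, of the oligosaccharyltransferase, and also 99.2% at Supt4a. Olig2 (98.4%), Atp6v0c (97.7%) and Mindy1 (96.7%) followed. Inside, the smallest margin between gene and island edge was 8 bp at Cenpq and 63 bp at Syf2, and the largest was 3740 bp at Mydgf.

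Genes of the same complexes and pathways were looked at next. Of 111 autosomal partners in 8 lists, 4 were covered at least 50 percentage points less in Setd5+/- cells and 7 at least 50 points more, with a median change of 0.00. Over all autosomal genes 1.82% were lower and 2.38% higher by that much, with the same median. The 2 sets are unlike, since median wild-type coverage was 60.1% for the partners and 0% for all autosomal genes. A gene without wild-type coverage cannot fall, so these shares are no matched background. Among 15 centromere genes, Cenpu went from 83.3% to 32.8%, and Cenpm on chromosome 15 from 0% to 71.2%. Among 21 cytochrome c oxidase assembly genes, the copper chaperone gene Cox19 went from 73.2% to 0% and Coa6 from 100% to 21.6%, while Tmem177 on chromosome 1 went from 0% to 77.7%. Among 15 genes of the GPN GTPases and polymerase assembly, Wdr92 went from 86.3% to 34.3%, and Gpn2 on chromosome 4 (0% to 92.7%), Pdrg1 (0% to 66.1%) and Pfdn2 on chromosome 1 (0% to 61.9%) went the other way. Gpn1, the partner of Gpn3 in polymerase import, had 93.1% in both.

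None of 9 partners of Vps51 in vesicle tethering, 20 sphingolipid genes, 21 splicing factors around Syf2 or the PC-esterase gene Pced1b changed by 50 points. Of the other tether subunits, Vps52 went from 41.2% to 0%, Vps54 had 63.7% and 60.8%, Vps50 had 9.89% and 35.3%, and Vps53 had none in either. Sphk1, the other sphingosine kinase gene, had no H3K36me3 in either genotype. The 21 splicing factors had a median coverage of 87.7% in wild type, and their Setd5+/- median was 84.1%. Of 9 other zinc finger genes in the region of Zfp689, Zfp771 went from 0% to 78.1% and Zfp553 from 0% to 58.3%, and the rest changed less.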

How the data were processed

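Per the labels, ChIP libraries of single 50-base reads were made from neural stem cells. The tools named in the submitters' processing notes are FastQC, Bowtie2 2.2.3 and SICER 1.1, with the build GRCm38 (mm10). Per the file headers, H3K36me2, H3K36me3 and SETD5-V5 lists came from SICER at 800 bp windows, 2400 bp gaps and an FDR of 0.01, so an island can bridge unenriched windows. For the other lists no settings were found in the headers, and whether inputs served as controls is not stated in the labels. The fourth column of the deposited lists has no name, and was taken, judging from its values, for raw read counts of each island. The 3 input samples, of 16 in all, are not analysed here.

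Islands of 13 libraries were set against the RefSeq GRCm38.p6 gene table with Python 3.11.15, numpy 2.4.6, pandas 2.3.3, scipy 1.17.1 and matplotlib 3.10.9. Coverage is the percent of the annotated span under islands. No test was run, since each group has 1 library. Read intervals are exact Poisson or binomial, and shares carry Wilson intervals. They cover counting error only, since amplified reads lack molecular identifiers. Sequences are from RefSeq. Letters for NRF1 and YY1 were also searched in the promoters, and were dropped from the results after their matches had been seen. The named genes are the 9, their neighbours, other genes that meet the rule, the nearest genes outside it, and partners that changed by at least 50 points. Gpn1, Vps50, Vps52, Vps53, Vps54, Sphk1 and Pced1b were named after their values were seen. The members, lists and comparisons were chosen with earlier results of these data known, and of 121 list entries 119 were found on autosomes.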

Additional observations from a re-analysis of the deposited data

How the results depend on the processing

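The looser rule of 90% and 10% and the removal of islands under 100 reads could not drop any of the 9 genes, which were chosen at 100% and 0% on islands of at least 114 reads. When the 25% of islands with the fewest reads were left out of each list, 8 of the 9 still met the rule. Vps51 did not, since its own island was removed, and leaving out chromosomes 1, 4 and 15 removes Syf2. The count of all genes meeting the rule went from 69 to 110 without those islands and to 19 with genes of at least 5 kb only. The median island over the 9 exceeded 71.3% of wild-type islands in reads and 31.9% in reads per kb. H3K4me1 in both genotypes went from 1 to 0 of the 9 when an island had to cover the start base. Neighbours numbered 9 with at least 50% of the gene inside the island. Lost wild-type islands numbered 1303 when 50% had to be covered to count as shared. At 25 percentage points, 11 partner genes were lower and 12 higher, and at equal covered length 4 were higher. After the data were seen, the overlap of wild-type islands with Setd5+/- islands was also counted at 25% of the wild-type island, with 7 of 9, and without Setd5+/- islands under 100 reads, with 6 of 9. Also chosen after the data were seen, leaving out Cox18 moved the SETD5-V5 share of the kept length from 57.3% to 30.4% and of the rest from 4.43% to 0.719%. H3K4me3 stayed at 9 of 9 and H3K27ac went to 7 when an island had to cover the start base, and neither count moved without the 25% of islands with the fewest reads. Stricter overlaps could not raise the SETD5-V5 count of 0. Depth outside islands is unknown, and a missing island does not show absent signal.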

Other observations

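The 60 other autosomal genes at 100% in wild type and 0% in Setd5+/- cells were short, with a median of 2.84 kb, and included the ribosomal protein genes Rps2, Rpl36, Rpl36al and Rplp1, the mitochondrial ribosome genes Mrps18b and Mrps34, the ribosome biogenesis genes Mrto4 and Noc4l, and Taf9, Polr2i and Ints5 of transcription and RNA processing. These were picked by eye from the list after the values were seen, and no enrichment was tested. The 69 genes lay in 60 wild-type islands, of which 40 still held a Setd5+/- island elsewhere and 20 did not. Spaca4 shares the island of Sphk2.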
